A study of Mus musculus with 6 samples.

Results

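The 38 genes described here encode the contractile machinery of skeletal muscle, with the embryonic and neonatal myosins, the calcium handling proteins, the myogenic transcription factors and 2 subunits of the muscle acetylcholine receptor. They were picked by gene symbol from a read-count table of 18404 genes in mouse ear skin, and all 38 had a row in it. The filter on low counts kept 36 of them among the 14920 genes tested, and the slow muscle light chain genes Myl2 and Myl3 were left out of the test. Poly(A) RNA was sequenced in 6 libraries from pups at postnatal day 3, 3 of them controls and 3 with an induced endothelial knockout of Kdr, the gene for VEGFR2 (labelled ecko). All 6 libraries are labelled tamoxifen treatment. The study's design text gives a dose of 60 µg per day that began on postnatal day 1, and the series name a time of 48 h. The controls were littermates, but the labels give neither their alleles nor the Cre line, nor do they say whether 1 library is 1 pup, so p-values measure the spread between these libraries. The knockout targets endothelial cells, and muscle fibres are measured here as part of whole ear skin.

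Muscle contracts when myosin heavy chains on the thick filament pull on actin in the thin filament. Troponin and tropomyosin on the thin filament make this depend on calcium, which the ryanodine receptor releases and the SERCA pump takes back up. Most of these proteins come in isoforms from separate genes, and muscle around birth exchanges embryonic and neonatal forms for adult fast or slow ones. Skin of the ear holds the small muscles that move the auricle, so RNA of striated fibres can reach a skin library. The fibre content of the tissue pieces is not given.

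Each library held 16987130 to 17979182 expected counts, and levels are given as CPM, counts scaled to a common library size with the trimmed mean of M-values (TMM). Kdr itself had 1599, 1860 and 1337 counts in controls 1 to 3 against 348, 431 and 370 in ecko 1 to 3, a log2 fold change of -2.05 ± 0.12 (SE; edgeR adjusted p 0.0002). It was the 1 gene past the adjusted threshold of 0.05 in the whole table. Control 2 and ecko 3 were nearly without the Y-linked transcript Ddx3y, with 4 and 6 counts against 1445 to 1641 in the other libraries. Control 3 stands apart in the genes described here, so results for ecko against control are given with and without it. Keratinocyte and dermal fibroblast genes, which define skin, summed to 20332 to 26831 CPM (9 genes) and 34785 to 40504 CPM (8 genes). Myh6, Myl7, Nppa, Mybpc3 and Pln, which mark heart muscle, had at most 8 counts in any library. Of the other heart markers listed, Myl3 had 2 to 11 counts, Tnni3 9 to 15, Ryr2 22 to 52 and Casq2, which skeletal fibres also express, 1303 to 2449.

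The skeletal myosin heavy chains are the isoforms that set the age and type of a fibre, and they are much alike in sequence. The genes for the embryonic form Myh3, the fast forms Myh2 (IIa), Myh1 (IIx) and Myh4 (IIb) and the neonatal form Myh8 lie in this order on chromosome 11, from 67078273 to 67308634 (GRCm38.p6). The slow form Myh7 lies on chromosome 14 (54970684 to 54994626). Coding sequences of Myh8 and Myh1 were identical at 89.2% of aligned bases, those of Myh1 and Myh2 at 91%, and those of Myh8 and Myh3 at 80.8%. To show what lets a read be placed, the 60 coding bases least alike among the 5 chromosome 11 genes are given below (GENCODE vM21 transcripts on GRCm38, 5′ to 3′), with capitals at each base that differs from Myh8.
Myh8: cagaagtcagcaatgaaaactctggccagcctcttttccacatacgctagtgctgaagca
Myh3: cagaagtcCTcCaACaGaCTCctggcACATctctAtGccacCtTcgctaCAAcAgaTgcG
Myh2: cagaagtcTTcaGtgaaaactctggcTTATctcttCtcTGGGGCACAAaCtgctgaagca
Myh1: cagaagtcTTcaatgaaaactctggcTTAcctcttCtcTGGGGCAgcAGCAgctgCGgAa
Myh4: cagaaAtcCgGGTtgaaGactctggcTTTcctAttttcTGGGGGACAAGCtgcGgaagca
Myh7: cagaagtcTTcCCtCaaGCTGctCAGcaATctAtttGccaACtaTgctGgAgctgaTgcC
In Myh8 these bases are coding bases 1837 to 1896 and lie in 1 exon at chr11:67289776-67289835, and in Myh2, Myh1 and Myh4 they lie at chr11:67181284-67181343, chr11:67209102-67209161 and chr11:67248695-67248754, all on the plus strand. In Myh3 they span an intron within chr11:67089067-67089242, and in Myh7 they lie on the minus strand at chr14:54987222-54987281. Between 19 (Myh2) and 23 bases (Myh3, Myh4 and Myh7) differ from Myh8 there. Over the whole coding sequence, 9.87% of the 100-base windows of Myh1 were found unchanged in at least 1 other of the 6 genes, as were 9.57% of Myh2, 5.48% of Myh8, 3.99% of Myh4 and none of Myh3 or Myh7. Counts of the fast forms and of Myh8 can therefore hold reads shared out by the authors' counting, and the embryonic and slow forms share no such window. Of the Myh8 windows 3.57% were also in Myh2, a gene at 43.6 CPM beside 2149 CPM for Myh8 (means over all libraries). The part of such reads in the Myh2 counts was not measured.

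Neonatal myosin led the heavy chains in every library. Myh8 had 2561, 2115 and 1372 CPM in controls 1 to 3 and 2643, 2160 and 2041 CPM in ecko 1 to 3. It made up 83.7% to 86.6% of the counts of the 6 heavy chain genes, whose transcripts are of nearly equal length (5.91 to 6.23 kb). The fast forms Myh1, Myh2 and Myh4 together held 9.76% to 12.3%, embryonic Myh3 3.59% to 5.09%, and slow Myh7 at most 0.051%. Each library thus held mostly neonatal myosin transcript, with fast IIx next, and 5 to 23 counts of the slow form.

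Among the minor forms, Myh1 had 320, 194 and 145 CPM in the controls against 319, 194 and 216 CPM in ecko, so that control 1 and ecko 1 were the highest pair and control 3 the lowest library. Myh2 had 52.1, 40.1 and 21.1 CPM in the controls against 58.5, 48.7 and 41.3 CPM in ecko. Myh4, the fastest form, stood at 4.09 to 6.29 CPM with no low value in control 3. The embryonic form had 119, 87.8 and 59.2 CPM in the controls against 121, 119 and 124 CPM in ecko. Myh3 was thus level over the ecko libraries and spread over the controls, and control 1 reached the ecko range.

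**Figure D1:**
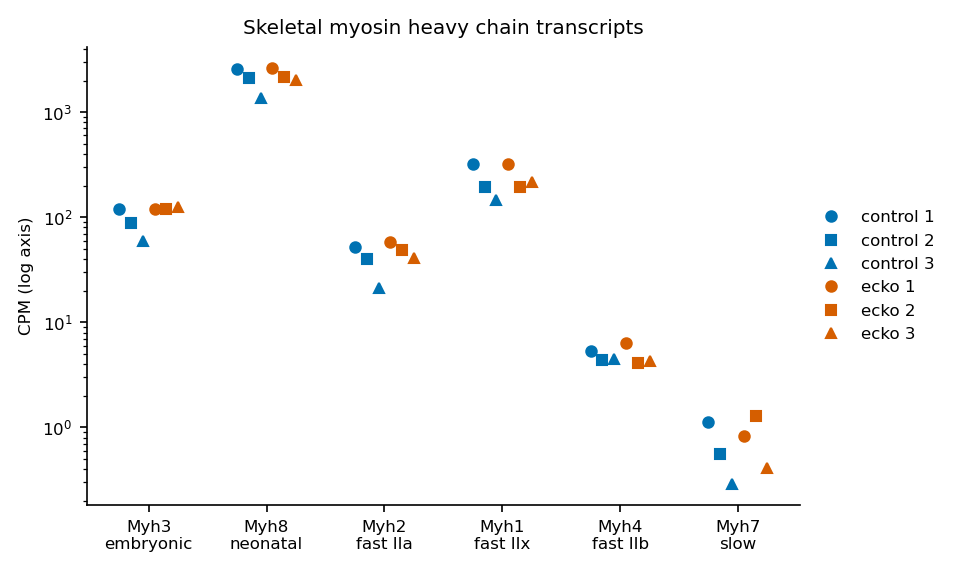
CPM (log axis) of the 6 skeletal myosin heavy chain genes, 1 point per library, blue for control and orange for ecko, with marker shapes for replicates 1 to 3. Myh8 lies between 1372 and 2643 CPM in the 6 libraries, and control 3 is the lowest point for Myh3, Myh8, Myh2, Myh1 and Myh7.

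Compared per kilobase of transcript, Acta1, Mylpf, Myl1, Tnnt3 and Tnnc2 stood above Myh8, the leading heavy chain. Skeletal α-actin, Acta1, had 1957 ± 363 CPM per kb (SD over 6 libraries). The fast regulatory light chain Mylpf (971 ± 165), the fast essential light chain Myl1 (858 ± 138) and fast troponin T, Tnnt3 (789 ± 132) followed, and their spreads overlapped. Fast troponin C, Tnnc2, had 511 ± 86.3, and the next 4 genes lay between 319 and 391 CPM per kb, the tropomyosins Tpm1 and Tpm2, Myh8 and fast troponin I, Tnni2. The SDs of these 4 overlapped too. Such an SD covers the spread between libraries, so it does not show whether genes differ within a library, which was not tested. Muscle creatine kinase, Ckm, the SERCA1 pump gene Atp2a1, desmin, Des, the Z-disc actinin Actn2 and Mybpc1, a myosin-binding protein of slow type, stood at 100 to 165 CPM per kb. The longest proteins were low on this scale, with 10.5 for nebulin, Neb, 5.50 for the calcium release channel Ryr1 and 5.36 for titin, Ttn. Lengths are those of 1 principal GENCODE transcript per gene, which fetal isoforms may not share.

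The slow troponins were scarce beside their fast partners, while Mybpc1 stood above its fast partner Mybpc2 (19.7 ± 3.67 CPM per kb) and Actn2 above fast actinin, Actn3 (14.7 ± 1.64). Tnni1, slow troponin I, had 6.86 ± 1.44 and Tnnt1, slow troponin T, 9.84 ± 1.71 CPM per kb, and Tnnc1, slow troponin C, had 3.57 ± 0.59. The cardiac isoform of troponin T, Tnnt2, which fetal muscle also makes, had 12.7 ± 1.19, embryonic light chain Myl4 41.9 ± 6.64 and cardiac α-actin Actc1, another form of early muscle, 63.4 ± 12.6 CPM per kb. Myl2 and Myl3 had at most 6 and 11 counts in a library. Transcripts of the myogenic factors were measured at 12.4 CPM for Myog (differentiating cells), 3.13 for Myod1 and 1.89 for Pax7 (satellite cells) as means over all libraries. The receptor subunit Chrna1 averaged 14.9 CPM and Chrng, the fetal subunit, 3.26.

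Library by library, control 3 was the lowest for nearly the whole set. It had the lowest CPM in 32 of the 36 tested members, where it was the lowest library for 29.3% of all tested genes. Summed over the 38 genes the level was 15542, 13107 and 8968 CPM in controls 1 to 3 and 14803, 13307 and 12171 CPM in ecko 1 to 3. Control 3 thus lay below all others, and the other 5 covered 12171 to 15542 CPM. The median member stood in control 3 at 0.655 of its mean in the other 5 libraries, against 0.997 for the median of all tested genes. At the other end, control 1 was the highest library for 22 members (61.1%, beside 13.6% of all tested genes) and ecko 1 for 12 (33.3%, beside 19.3%). Control 3 was the highest for 0 members but for 27.5% of all tested genes, so it was often an extreme library in either direction. In bulk skin, fewer muscle fibres and less of these transcripts per fibre cannot be told apart.

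**Figure D2:**
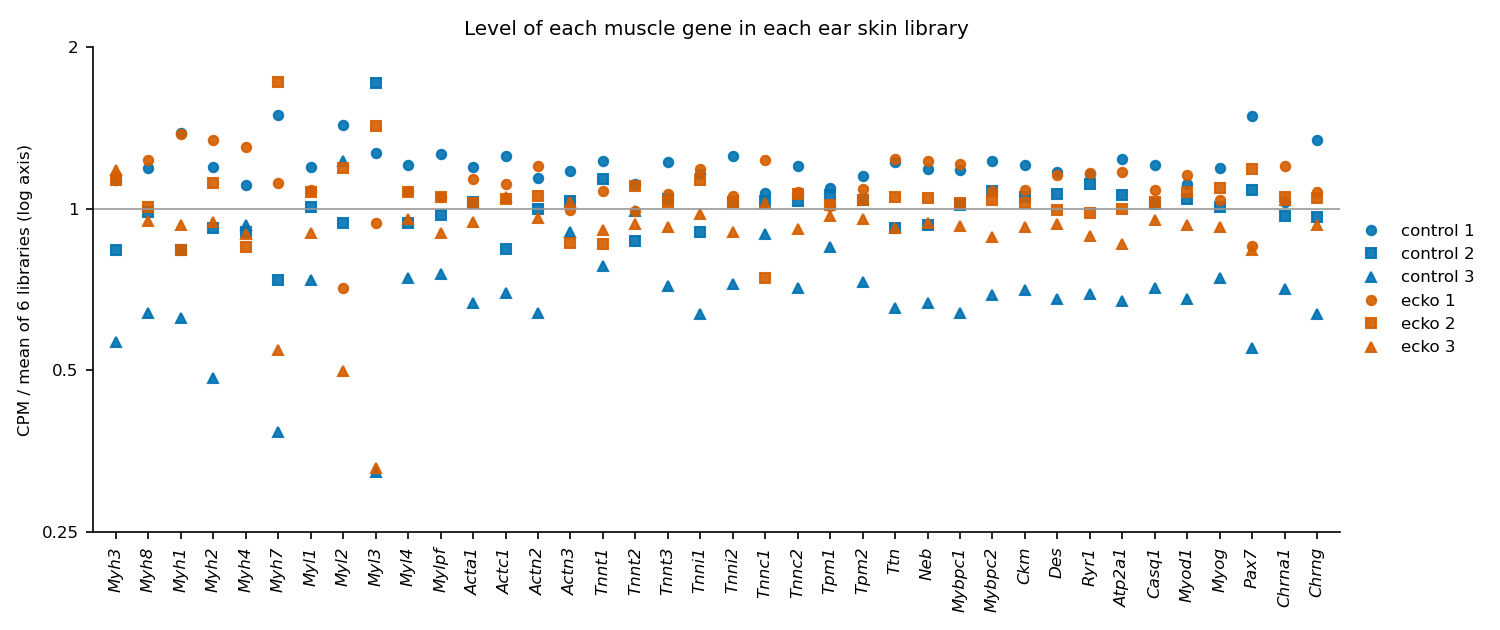
CPM of each of the 38 genes divided by its mean over the 6 libraries (log axis), with blue for control, orange for ecko and marker shapes for replicates 1 to 3. Control 3 (blue triangles) is the lowest point in 32 of the 36 tested genes, and the points of Myh7, Myl2, Myl3 and Pax7 scatter most.

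Acta1 shows the pattern at high counts, with 3391, 2909 and 1892 CPM in controls 1 to 3 and 3215, 2898 and 2676 CPM in ecko 1 to 3. Titin had 656, 494 and 351 CPM in the controls against 666, 565 and 494 in ecko, with control 3 again the lowest library and ecko 1 in place of control 1 the highest. The 4 tested members for which another library was lowest were Myh4, Actn3 (fast actinin), Tnnt2 and Tnnc1. Tnnt2 had 13.3 CPM in control 2, 15.1 in control 3 and 17 in control 1, so control 3 was inside the range of the others. Among the other tested members Tpm1, which smooth muscle and fibroblasts also express, was nearest to the rest, at 0.822 of its mean in the other libraries. The satellite cell and differentiation factors were lowest in the same library, with 1.04 CPM for Pax7 against 1.58 to 2.81 elsewhere and 9.23 CPM for Myog against 11.5 to 14.8.

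Markers of other tissues did not move one way in control 3. The summed CPM of 15 cartilage genes, of which 14 were in the table, was the highest of the 6 libraries there (122.5 against 95.55 to 111.4 CPM). Fibroblast genes were also highest in it (40504 against 34785 to 38288 CPM), and 11 non-muscle isoforms of myosin, actin, actinin and tropomyosin summed to 6896 CPM against 5675 to 6481. Keratinocyte genes were highest there by a small margin (26831 against 20332 to 26701 CPM). Sums of adipocyte, endothelial and leukocyte genes lay inside the range of the other libraries. Smooth muscle genes, a list of 9 that counts desmin, were lowest in control 3 (722.9 against 891.6 to 959.0 CPM). Desmin, itself 1 of the 38 genes, supplied 251 CPM of that sum in control 3 and 347 to 434 CPM elsewhere. Schwann cell genes were at 414.2 against 448.3 to 471.0 CPM. The part of these tissues in the muscle level was not tested.

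Most other muscle genes moved with the 38. In a second list of 88 skeletal muscle genes, none of them members, control 3 was the lowest library for 75 of the 86 tested. Its neuromuscular junction genes summed to 145.5 CPM in control 3 against 144.1 to 165.3 CPM, though 7 of the 8 tested were lowest there. Lrp4, the highest of these, stood in control 3 at 1.09 of its mean in the other libraries, and outside this group Kcnj12 stood at 1.12 and Phka1 at 1.06. The sum of the whole second list was 2552 CPM in control 3 against 3297 to 4068 CPM in the other libraries. When each member was divided by that sum, its coefficient of variation over the 6 libraries was smaller in 32 of 36 members, and the median was 7.45% in place of 17.9%. Tpm2 came to 196, 201 and 198 CPM per 1000 CPM of the second list in the controls against 196, 200 and 201 in ecko, a coefficient of variation of 1.21%. Casq1, the calcium store protein (2.07%), Ckm (2.75%) and Tnnt3 (2.96%) came next. The members that kept the widest spread were Myh7 (46.4%, at 5 to 23 counts), Pax7 (21.7%), Myh1 (19.5%), Myh2 (19.2%) and Myh3 (17.9%). Per unit of the second list, the minor heavy chains thus varied more between libraries than Acta1 (4.25%), Ckm (2.75%) or Tnnt3 (2.96%), and Myh8 lay between (8.03%).

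**Figure D3:**
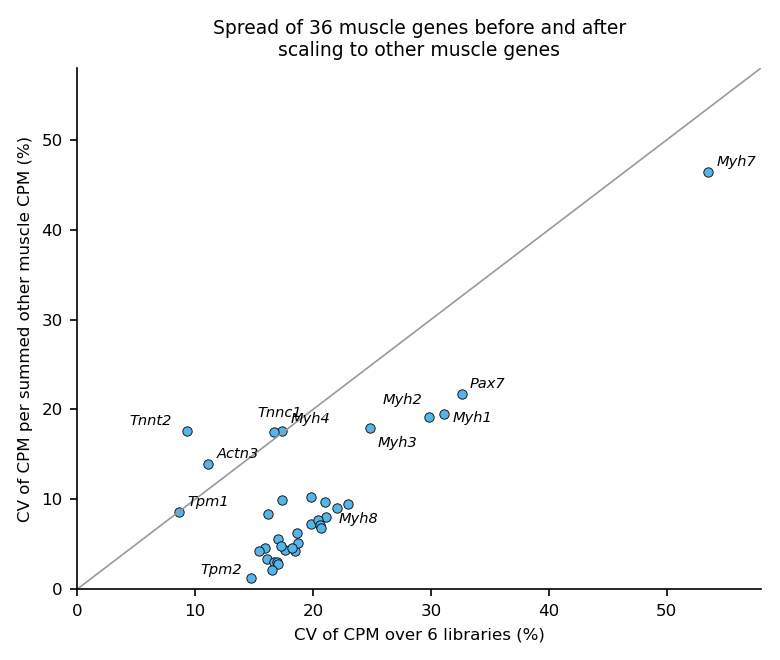
Coefficient of variation (CV) over the 6 libraries of each of the 36 tested genes, for CPM on the horizontal axis and for CPM divided by the summed CPM of the second muscle list on the vertical axis, with a line at equality. On the vertical axis 26 of 36 points lie below 10%, Myh7 is highest at 46.4% and Pax7 next at 21.7%, and Tnnt2, Actn3, Tnnc1 and Myh4 lie above the line.

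The genes outside the 38 whose log2 CPM ran closest to the members' mean over the 6 libraries were Coq10a (Pearson r 0.998), Sypl2 (0.996), Cep85 and Casq2 (0.993 each) and Cav3 (0.992), among 10916 genes with at least 10 CPM. Cav3 is the muscle caveolin and part of the second list, Sypl2 a protein of the muscle triad and Casq2 the calsequestrin of heart and slow fibres. Casq2 had 138, 109 and 75.1 CPM in controls 1 to 3 and 127, 118 and 98.1 CPM in ecko. The points share libraries and depth, and no test was made of these values.

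No member was called higher or lower in ecko, though with 3 libraries a group moderate changes could be missed. The edgeR quasi-likelihood test called 0 of the 36 tested members in either direction, where it called 0.0% of all genes higher and 0.0067% lower, and 0 members had an unadjusted p under 0.05 (4.92% of all genes higher, 4.1% lower). DESeq2 called 0 members adjusted as well, where it called 0.583% of all genes higher and 0.174% lower. Unadjusted it also had 0 members under 0.05 (4.05% of all genes higher). With limma-voom 0 members passed adjusted and 1, Myh3, unadjusted (5.15% of all genes higher). The mean was higher in ecko for 30 of the 36 (49.5% of all genes). Their median log2 fold change was 0.06, beside -0.002 for all genes. Without control 3 this turned, with 11 members higher and a median of -0.09. Tnnt1 had -0.31 ± 0.13 in that fit (edgeR p 0.0357 unadjusted, 0.517 adjusted). With the mean level of the second muscle list as a covariate, 17 members were higher and the median was -0.01. Without control 1 the median was 0.23, with 34 higher. In that fit 7 members were higher at an unadjusted edgeR p under 0.05, beside 7.02% of all genes. The summed level was 12539 ± 3324 CPM in the controls against 13427 ± 1320 CPM in ecko (SD, n = 3), a difference inside the spread of the controls.

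**Figure D4:**
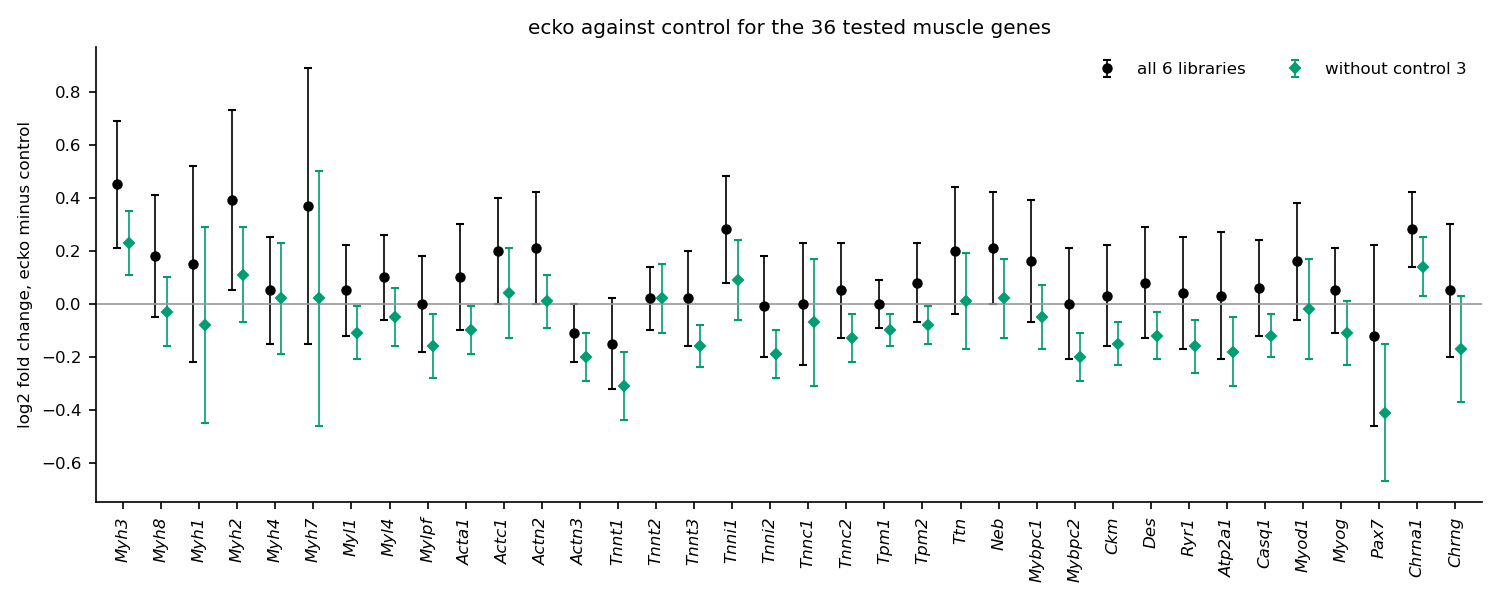
Log2 fold change, ecko minus control, with its SE for the 36 tested genes, from all 6 libraries (black) and without control 3 (green). With all libraries 30 of 36 lie above 0 and without control 3 only 11 do, and no gene passed the adjusted threshold in either fit.

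Embryonic and fast IIa myosin had the largest values among the better counted heavy chains. For Myh3 the means were 88.7 ± 30.0 CPM in the controls against 121 ± 2.39 CPM in ecko (SD, n = 3), a log2 fold change of 0.45 ± 0.24 (edgeR adjusted p 0.629) and of 0.23 ± 0.12 without control 3. For Myh2 they were 37.8 ± 15.6 and 49.5 ± 8.62 CPM, a log2 fold change of 0.39 ± 0.34 and of 0.11 ± 0.18 without control 3. With the mean level of the second muscle list as a covariate, Myh3 had 0.37 ± 0.08 (edgeR adjusted p 0.116) and Myh2 0.26 ± 0.07 (0.19). These were the 2 of 36 members with an unadjusted p under 0.05 in that fit, where 5.84% of all genes were higher at that p. Myh8 stood at 0.18 ± 0.23 and Myh1 at 0.15 ± 0.37, Myh7 at 0.37 ± 0.52 and Myh4 at 0.05 ± 0.20, while Acta1 had 0.10 ± 0.20, Actc1 0.20 ± 0.20 and Ttn 0.20 ± 0.24. Neb and Actn2 were each at 0.21 ± 0.21, Actn3 at -0.11 ± 0.11 and Mybpc1 at 0.16 ± 0.23. Mybpc2 and Tpm1 were at 0.00 and Tpm2 at 0.08 ± 0.15. Light chains Myl1, Myl4 and Mylpf lay between 0.00 and 0.10. The troponins ran from -0.15 ± 0.17 (Tnnt1) to 0.28 ± 0.20 (Tnni1), and Ckm, Des, Ryr1, Atp2a1 and Casq1 from 0.03 to 0.08. Pax7, at 18 to 50 counts, had -0.12 ± 0.34, Myod1 0.16 ± 0.22 and Myog 0.05 ± 0.16. Many of these values shrank without control 3, where Actc1, Actn2, Ttn and Neb lay between 0.01 and 0.04. Myh7 was then at 0.02 ± 0.48 and Tnni1 at 0.09 ± 0.15. Actn3 (-0.20 ± 0.09) and Tnnt1 (-0.31 ± 0.13) lay further below 0, and 25 of 36 members were below 0 in that fit.

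The acetylcholine receptor subunit Chrna1, which every muscle receptor contains, was the 1 member whose groups did not overlap, higher in ecko, as in 7.55% of all genes. No member was lower without overlap (8.11% of all genes). Its CPM were 15.4, 14.5 and 10.6 in controls 1 to 3 and 17.9, 15.7 and 15.5 in ecko 1 to 3. Control 1 and ecko 3 nearly met, and the log2 fold change was 0.28 ± 0.14 (edgeR adjusted p 0.593), or 0.14 without control 3. Chrng, the subunit that fetal receptors carry in place of the adult Chrne, had 4.38, 3.15 and 2.08 CPM in the controls against 3.51, 3.42 and 3.04 CPM in ecko. Chrne had 2 to 6 counts in the controls against 5 to 9 in ecko.

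Promoters are shown for these 2 receptor genes, for Tnni1 (1 of its 2 RefSeq starts) and for Myh8. Muscle promoters are known for E-boxes, the sites that MyoD and myogenin bind, and for MEF2 sites. A link of such sites to the levels in these libraries was not tested. Each is the 250 bases before the RefSeq start (GRCm38.p6), 5′ to 3′ on the strand of the gene, with capitals for E-boxes (CAGCTG, or CACCTG and its complement CAGGTG) and for the MEF2 motif.
Chrna1: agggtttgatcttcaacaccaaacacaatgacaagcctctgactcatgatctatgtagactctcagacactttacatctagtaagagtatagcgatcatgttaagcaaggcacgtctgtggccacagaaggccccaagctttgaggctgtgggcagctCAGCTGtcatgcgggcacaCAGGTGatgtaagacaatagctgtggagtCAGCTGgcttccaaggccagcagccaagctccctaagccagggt
Chrng: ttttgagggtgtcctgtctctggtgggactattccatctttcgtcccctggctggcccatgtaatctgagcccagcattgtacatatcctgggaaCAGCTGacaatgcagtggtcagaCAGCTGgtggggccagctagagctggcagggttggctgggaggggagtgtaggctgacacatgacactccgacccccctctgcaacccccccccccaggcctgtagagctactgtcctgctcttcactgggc
Tnni1: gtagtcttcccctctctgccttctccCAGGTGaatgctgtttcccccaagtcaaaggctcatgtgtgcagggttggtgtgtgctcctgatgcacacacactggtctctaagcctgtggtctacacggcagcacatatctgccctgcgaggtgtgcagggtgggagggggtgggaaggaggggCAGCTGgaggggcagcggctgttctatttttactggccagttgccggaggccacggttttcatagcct
Myh8: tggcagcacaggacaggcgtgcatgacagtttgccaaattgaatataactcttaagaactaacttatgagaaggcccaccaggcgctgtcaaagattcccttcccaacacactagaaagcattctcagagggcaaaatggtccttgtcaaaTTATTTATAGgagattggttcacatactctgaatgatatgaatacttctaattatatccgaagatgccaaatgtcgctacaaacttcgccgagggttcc
The Chrna1 window lies at chr2:73580339-73580588 on the minus strand, and those of Chrng, Tnni1 and Myh8 at chr1:87205561-87205810, chr1:135799171-135799420 and chr11:67276874-67277123 on the plus strand. Chrna1 has E-boxes that begin 92, 73 and 44 bases before the start, Chrng 155 and 132 bases before it and Tnni1 224 and 68 bases before it. The Myh8 window has no such E-box and 1 MEF2 match 99 bases before the start, which overlaps a TATAAA read on the other strand. Promoters were found for 33 of the 38 genes, in 37 windows. On either strand CAGCTG was present in 16 of these (43.2%) beside 13.0% of 32851 promoter windows of the same length, and the MEF2 motif in 4 (10.8%) beside 2.92%. The other E-box letters were in 10 (27.0%) beside 17.2%. Also searched were CArG (CC and GG around a run of A or T), in 4 (10.8%) beside 1.47%, and TATAAA, in 8 (21.6%) beside 12.4%. These matches are a description of letters and were not tested as sites.

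Isoform shares were compared next, since each is a ratio within a library. Shares can still move with the muscle level where an isoform does not follow it: the Tnnt2 share of Tnnt1, Tnnt2 and Tnnt3 was 1.71%, 1.56% and 2.55% in controls 1 to 3 and 1.73%, 1.99% and 1.88% in ecko 1 to 3, highest in control 3. Of 14 shares within pairs or families, 3 did not overlap between the groups: slow troponin I, slow-type myosin-binding protein C and the fetal receptor subunit. With 3 against 3 libraries the smallest exact permutation p is 0.1, so none could pass 0.05. Groups without overlap reach just this p, so a share would separate in this way by chance at a rate of 0.1. The shares were chosen with earlier results of these data known. Adjusted over the 14 shares those 3 had 0.467.

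Tnni1 (chromosome 1, 135783033 to 135810989) made up 2.89%, 2.74% and 2.75% of the Tnni1 and Tnni2 counts in controls 1 to 3 and 3.48%, 3.42% and 3.36% in ecko 1 to 3. The means were 2.79% ± 0.086 and 3.42% ± 0.059 (SD, n = 3), a difference of 0.627 percentage points (two-sided exact permutation p 0.1). All 3 ecko libraries were above all controls, control 3 included, and the gap between the groups was larger than the spread within either. Counting error is wider than that spread: the 95% Wilson intervals of the libraries, which cover counting error only, ran from 2.49% to 3.36% in control 1 and from 2.84% to 3.97% in ecko 3. Tnni1 had 87 to 168 counts per library. Neither gene passed the edgeR test (Tnni1 0.28 ± 0.20, Tnni2 -0.01 ± 0.19).

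Mybpc1 held 84.1%, 83.9% and 83.7% of the counts of Mybpc1 and its fast partner Mybpc2 in the controls against 86.1%, 84.5% and 85.3% in ecko. Its mean share differed by 1.41 percentage points (two-sided exact permutation p 0.1), and the lowest ecko value, 84.5%, lay inside the 95% Wilson interval of control 1 (83.4% to 84.8%). Chrng held 92.9%, 93.4% and 94.7% of the Chrng and Chrne counts in the controls against 88.7%, 92.4% and 85.2% in ecko, lower by 4.88 points on 38 to 84 counts a library. The intervals of control 2 (84.3% to 97.4%) and ecko 2 (83.5% to 96.7%) overlapped nearly in full. The other slow troponins overlapped between the groups: the Tnnt1 share of Tnnt1 and Tnnt3 was 1.33% ± 0.059 in the controls against 1.19% ± 0.12 in ecko, and Tnnc1 0.751% ± 0.136 and 0.705% ± 0.179 of Tnnc1 and Tnnc2 (SD, n = 3).

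Embryonic Myh3 held 3.89%, 3.59% and 3.70% of the 6 heavy chains in the controls, and had 3.84%, 4.70% and 5.09% in ecko. Ecko 2 and 3 were above all controls and ecko 1 was among them, so the groups overlapped (two-sided exact permutation p 0.2, n = 3). In ecko 3 the 95% Wilson interval was 4.88% to 5.31%, and in control 1 it was 3.73% to 4.06%. The fast heavy chains together held 10.9% ± 1.31 in the controls against 10.9% ± 1.21 in ecko (SD, n = 3). Early forms of other sarcomere proteins overlapped as well: Actc1 was 3.09% ± 0.41 and 3.31% ± 0.21 of the α-actins, and Myl4 5.10% ± 0.21 and 5.28% ± 0.18 of the essential light chains. The Actn2 share of the actinins was 88.7%, 88.7% and 85.2% in the controls against 90.8%, 90.9% and 88.4% in ecko, with control 3 the lowest library.

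**Figure D5:**
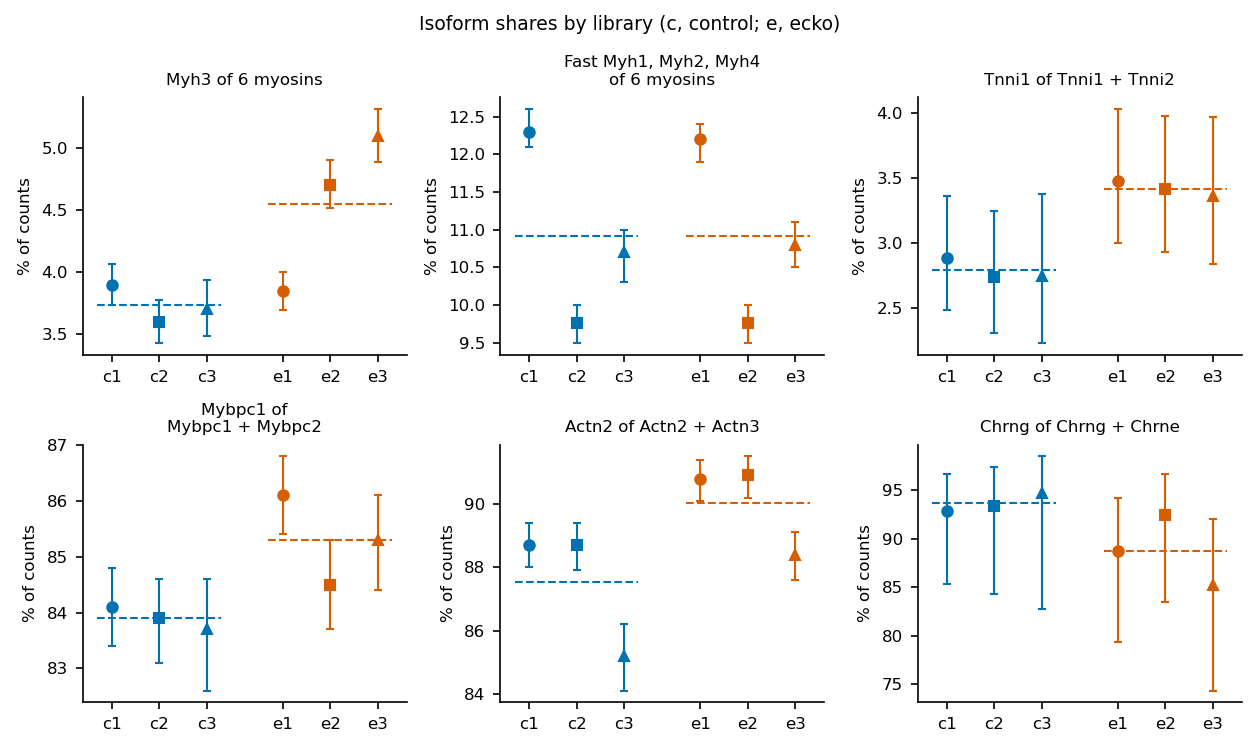
Shares of counts for 6 isoform pairs or families, 1 point per library (c, control; e, ecko) with its 95% Wilson interval, and dashed lines at the group means. The axes do not start at 0. The Tnni1 points are at 2.74% to 2.89% in the controls against 3.36% to 3.48% in ecko, and the fast myosin shares of equally numbered libraries lie side by side.

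The second muscle list gave no call by edgeR either. Of its 86 tested genes 63 were higher by their mean in ecko (49.5% of all genes). The log2 fold changes of the 86 had a median of 0.069 (-0.104 without control 3). Fbxo32, the ubiquitin ligase atrogin-1 of muscle wasting, had 31.9 ± 8.19 CPM in the controls against 52.0 ± 9.72 CPM in ecko (SD, n = 3). Its log2 fold change was 0.70 ± 0.21 (edgeR adjusted p 0.482, DESeq2 adjusted p 0.0116), and 0.53 ± 0.18 without control 3. It was the 1 gene of the 86 that was higher in ecko without overlap, as were 7.55% of all genes. Its values in control 2 and ecko 2 nearly met. The 1 gene lower without overlap was Kcnj12 (8.11% of all genes). Fbxo32 is expressed by other tissues too. Among the genes of the neuromuscular junction, 6 of 8 had a higher mean, with 0.53 ± 0.25 for Colq, the anchor of acetylcholinesterase, and 0.00 ± 0.08 for the agrin receptor Lrp4. The Z-disc and M-band genes had 19 of 24 higher (Myom1, an M-band protein, 0.17 ± 0.20) and the genes of excitation and contraction 9 of 15 (Srl, sarcalumenin, 0.15 ± 0.16, and the potassium channel Kcnj12 -0.24 ± 0.14). Progenitor and fusion genes had 11 of 13 higher, with 0.40 ± 0.23 for the satellite cell cadherin Cdh15 and -0.13 ± 0.33 for myostatin, Mstn. In energy metabolism 11 of 15 were higher (Eno3, muscle enolase, 0.02 ± 0.13, and the phosphorylase kinase subunit Phka1 -0.10 ± 0.08), and in membrane linkage 7 of 11. Flnc, muscle filamin, had 0.03 ± 0.14 and Dysf, dysferlin of membrane repair, -0.32 ± 0.13 there. None of these passed the edgeR test. Without control 3 the median was 0.06 for the genes of the neuromuscular junction and from -0.13 to -0.09 for the other groups of genes, so these counts depend on that library.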

How the data were processed

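Poly(A) RNA of ear skin was sequenced in 3 control and 3 ecko libraries. The authors deposited expected counts per gene, not scaled between libraries, as judged from the file, where 10.1% to 10.4% of a library's entries have decimals. Per the submitters' processing notes, RSEM 1.3.1, HISAT2 2.2.1 and Bowtie2 2.4.5 were used with build GRCm38.p6, with no roles stated. The annotation and strand setting are not given in the sources used here, so reads of overlapping genes cannot be told apart.

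Expected counts were rounded and tested with edgeR 4.0.16 in R 4.3.3 (filterByExpr with a minimum count of 10, TMM, robust glmQLFit, glmQLFTest), two-sided, with Benjamini-Hochberg adjustment over all 14920 genes. SE is the absolute log2 fold change over the square root of F. Log2 CPM used a prior count of 2. Shares of counts were compared by exact permutation over libraries. DESeq2 1.42.0, limma 3.58.1 (voom), other scaling and filters, a covariate, a replicate block and each library left out were alternatives. The gene test was checked on simulated data. The members, lists, shares and tests were chosen with earlier results of these data known. All members are accounted for. Of the second muscle list, the gene with the highest mean CPM and the gene with the smallest p of each of 6 sublists are named. The heart genes, Ddx3y and Chrne were named after their values were seen. Sequences come from the RefSeq promoter table (GRCm38.p6) and GENCODE vM21 transcripts.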

Additional observations from a re-analysis of the deposited data

How the results depend on the processing

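No member was called under any of the 14 alternatives, and the median of the members stayed between -0.09 (without control 3) and 0.23 (without control 1). Over all genes DESeq2 called 87 higher and 26 lower, the replicate block 88 and 10, the muscle covariate 45 and 8, and leaving out 1 library 0 to 2 higher (2 without ecko 3) and 1 lower. The cause was not tested. Deviations of equally numbered libraries correlated across genes at 0.162, -0.237 and -0.073, so the numbers are not shown to pair the samples. Control 1 correlated best with its own number, and control 2 with ecko 3 (0.336). With the block the smallest edgeR adjusted p of a member was 0.432 (Myh2). At an unadjusted p under 0.05, 5 of 36 members were higher, beside 5.33% of all genes.

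The sign of small values changed. With the covariate Myl1 was -0.03, Tnnt3 -0.07, Tnnc2 -0.04, Ckm -0.06, Des -0.02, Ryr1 -0.07 and Atp2a1 -0.08. Casq1 and Myog were each -0.03 there, Chrng -0.05, Eno3 -0.05 and Flnc -0.04. Tnni2 was 0.02 with limma-voom and with the block. With 1 library left out the log2 fold change of Myh8 ran from -0.03 to 0.39, Myh1 from -0.10 to 0.52, Myh4 from -0.17 to 0.17 and Myh7 from -0.07 to 0.99. Among light chains and actin, Myl1 ran from -0.11 to 0.22, Myl4 from -0.05 to 0.30 and Acta1 from -0.10 to 0.29. Among thin filament genes, Tnnt2 ran from -0.07 to 0.11, Tnnt3 from -0.16 to 0.19, Tnni2 from -0.19 to 0.18, Tnnc2 from -0.13 to 0.23 and Tpm2 from -0.08 to 0.22. Mybpc1 ran from -0.05 to 0.35, Ckm from -0.15 to 0.20, Des from -0.12 to 0.24, Ryr1 from -0.16 to 0.17, Atp2a1 from -0.18 to 0.22 and Casq1 from -0.12 to 0.24. Myod1 ran from -0.02 to 0.29, Myog from -0.11 to 0.21, Pax7 from -0.41 to 0.23 and Chrng from -0.17 to 0.34. In the second list Myom1 ran from -0.03 to 0.33, Srl from -0.02 to 0.27, Mstn from -0.36 to 0.20, Eno3 from -0.12 to 0.10 and Flnc from -0.12 to 0.18.

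Differences of shares, in points, also crossed 0 with 1 library left out. The fast heavy chain share ran from -0.643 to 0.701, Myh7 from -0.00411 to 0.013, Tnnt2 from -0.259 to 0.233, Tnnc1 from -0.103 to 0.057 and Actc1 from -0.017 to 0.335. From summed counts of the group the Tnnt2 share differed by 0.0106. Counts of Myh7, Chrne, Myl2 and Myl3 are too few at this depth to show a change.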

Other observations

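Equally numbered libraries of the 2 groups had nearly the same fast heavy chain share, a pattern seen in the data and not tested. It was 12.3% in control 1 and 12.2% in ecko 1, 9.76% in control 2 and in ecko 2, and 10.7% and 10.8% in control 3 and ecko 3. Myh1 carried it, with 78.6, 54.2 and 56.8 CPM per 1000 CPM of the second muscle list in controls 1 to 3 and 82.8, 53.9 and 65.5 in ecko 1 to 3. The Myh3 share did not follow the numbers (3.89% and 3.84%, 3.59% and 4.70%, 3.70% and 5.09%). The labels do not say what a number marks, and the summed level of the 38 genes differed within the pair of control 3 and ecko 3 (8968 and 12171 CPM).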
